A study of Macaca mulatta with 24 samples.

Results

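Potassium channel genes were followed in the cerebral cortex of rhesus monkeys on 3 diets. The genes were chosen by name. Every gene whose symbol starts with KCN in the annotation of the human bead array was taken, and it was kept if at least 1 of its probes was detected (detection p below 0.01) on 4 or more of the 24 arrays. Of 92 such symbols, carried by 164 probes, 52 were kept with 72 probes, out of 9884 genes kept in all. They comprised 18 pore-forming voltage-gated subunits, 5 modifier subunits, 7 inward rectifiers, 6 two-pore channels, 5 calcium- or sodium-activated channels and 11 accessory subunits. Of the 40 symbols without a kept probe, 34 were detected on 0 arrays and 6 on 1 to 3 arrays.

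The animals were male rhesus monkeys of 7 to 13 years, each represented by 1 array, on their diets for 24 months. The SD group (n = 4) ate a standard diet with 13% of its calories as fat and sucrose below 5% of its weight. The HFS group (n = 10) ate a high-fat, high-sugar diet with 42% of calories as fat and 27% sucrose, and the HFS+R group (n = 10) ate that diet with resveratrol (RSV), a plant polyphenol, at 40 mg and later 240 mg per treat in 2 treats a day. SD and HFS monkeys received placebo treats. The study's methods give the tissue of the arrays as temporal neocortex. A figure legend names frontal cortex and the introduction prefrontal cortex, so it is called cortex here. The array is a human one, and the match of its probes to monkey RNA was not examined. Each comparison asks whether a diet or RSV went with a different transcript level, and the comparisons share arrays, so their values are set side by side only.

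Potassium channels let potassium leave or enter cells along its gradient. In neurons they set the resting potential, end the action potential and limit repetitive firing, and in astrocytes they clear potassium released by active neurons. Voltage-gated pores open on depolarisation, modifier subunits form no working channel alone but change the pores they join, inward rectifiers and two-pore channels act near rest, and calcium- or sodium-activated channels couple ion entry to hyperpolarisation. Accessory subunits alter the gating or traffic of the pores.

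Levels are log2 values of the array signal, Z-normalised on each array and put back on the log2 scale, so a difference of 1 is a doubling of that scale. They can be compared between arrays for 1 probe and not between probes. A gene with several kept probes is represented by its brightest. Differences were tested with limma over all 9884 genes, 2-sided, and a gene was called where the p-value after Benjamini-Hochberg adjustment was below 0.05.

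With RSV added to the HFS diet, 8 of the 52 genes were called, which is 15.4% of them against 16% of all genes. Lower with RSV were KCNK12, KCNMA1, KCNAB3, KCNF1, KCNT1 and KCNJ4, which is 11.5% of the 52 against 6.07% of all genes. Higher were KCNK1 and KCNE2, which is 3.85% against 9.94%, and KCNE2 entered the analysis only because of its detection in HFS+R. The median log2 fold change of the 52 was -0.02 against 0.02 over all genes. The share called was thus near the background. At an unadjusted p below 0.05, 8 members were higher and 10 lower, against 31.4% of all genes in either direction (19.2% higher, 12.2% lower), and the rule of the study's methods, given with HFS against SD, took 7 higher and 9 lower, against 26.4% (16.3% higher, 10.1% lower). The split by direction moved with the scaling: when signals were scaled only by the array median, which put the median of all genes at 0.11, 5 members were called higher and 1 lower. It also moved with single arrays, since the count called higher was 1 without HFS replicate 3 or HFS+R replicate 3, 5 without HFS+R replicate 6 and 4 without HFS+R replicate 10.

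**Figure D1:**
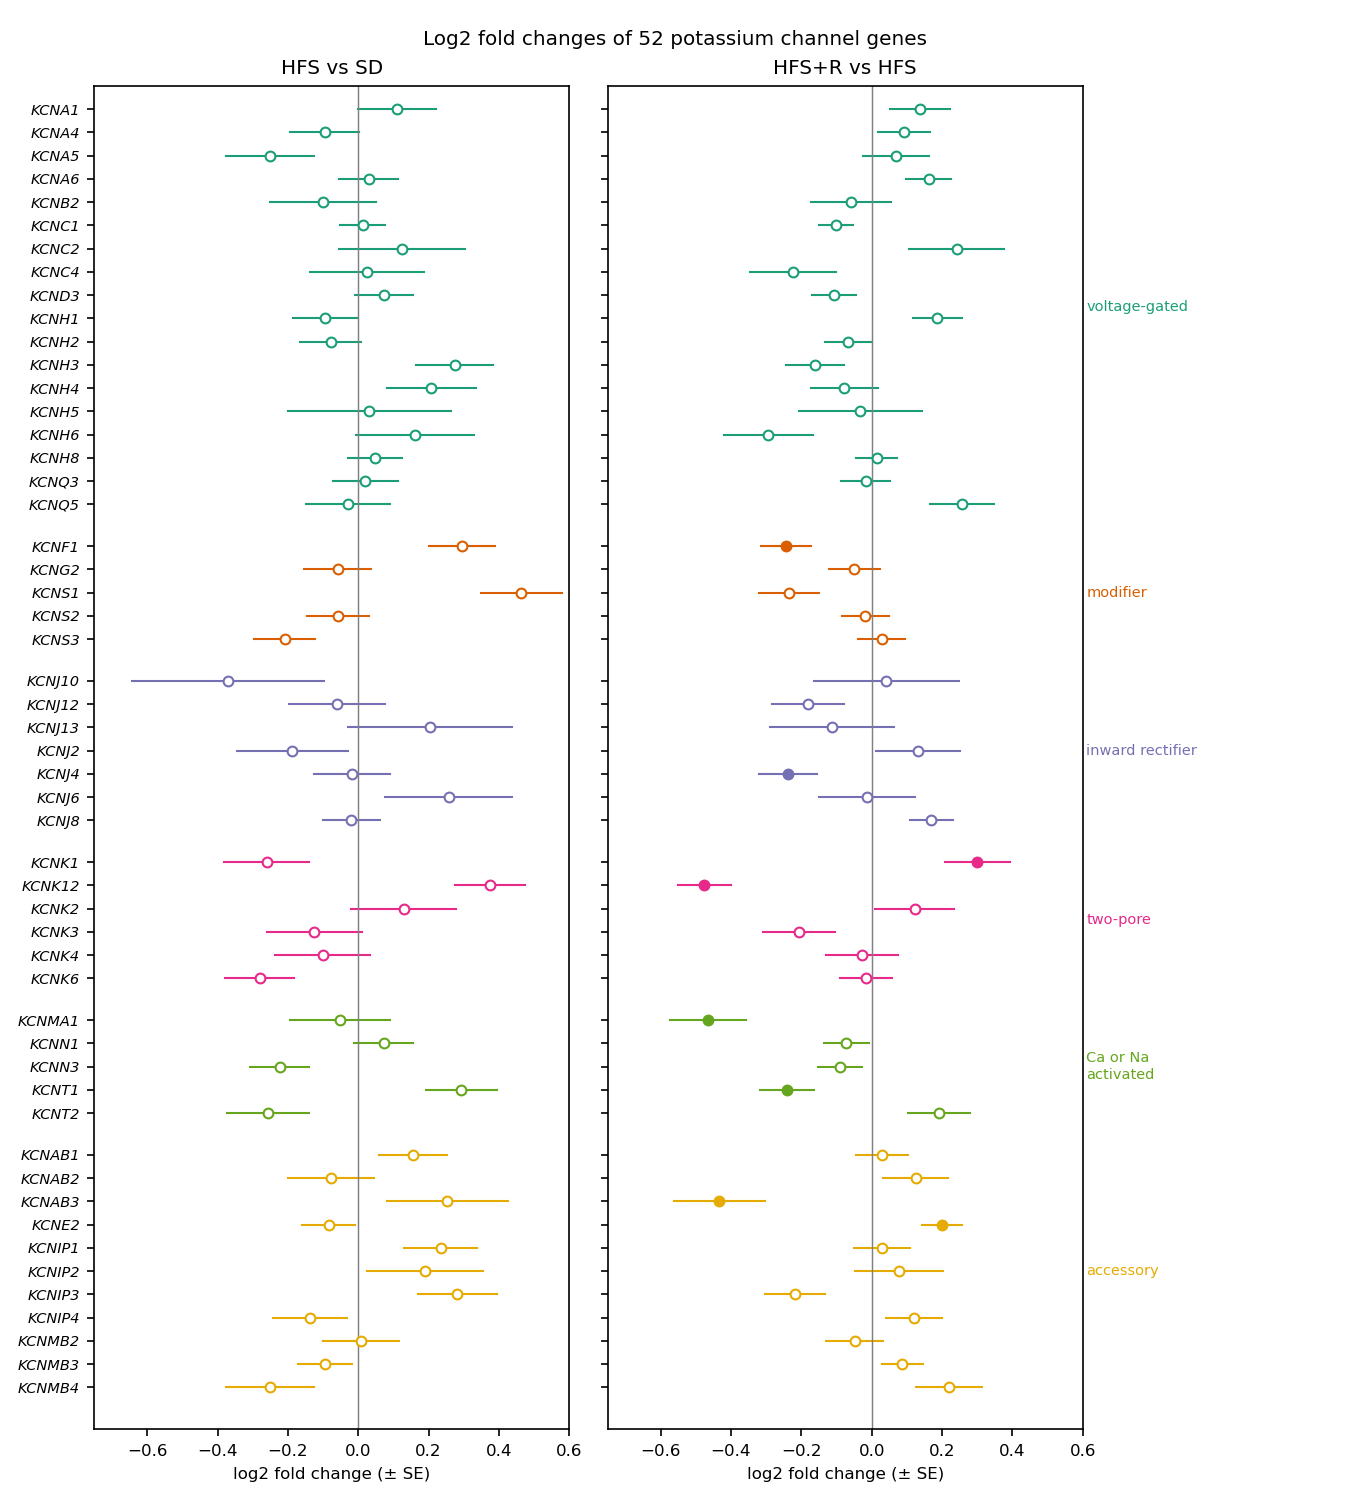
Log2 fold change (x axis, with SE) of each of the 52 potassium channel genes (y axis, coloured by class) for HFS against SD on the left and HFS+R against HFS on the right. Filled points have an adjusted p below 0.05: there are 0 on the left and 8 on the right, none of them among the 18 voltage-gated pores.

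Among the two-pore channels, which carry background potassium current, KCNK12 and KCNK1 were called in opposite directions. KCNK12 encodes a subunit of the halothane-inhibited subgroup. Its level was 11.03, 11.02, 11.19 and 11.64 on the SD arrays. HFS arrays ran from 11.41 through a median of 11.60 to 11.77, and HFS+R arrays from 10.88 through 11.11 to 11.36. Every HFS+R array lay below every HFS array, and KCNK12 was 1 of 15 among the 9884 genes (0.152%) whose HFS and HFS+R arrays did not overlap. Of the SD arrays, 3 lay within the HFS+R range and SD replicate 4 within the HFS range. KCNK12 was 1.39-fold lower in HFS+R than in HFS (log2 fold change -0.48, SE 0.07, adjusted p = 0.00081). The call held in all 17 other settings (log2 fold change -0.48 to -0.25) and without each of the 24 arrays in turn. The 17 are not separate checks, since KCNK12 has 1 probe and the deposited Z scores match the recomputed ones. Because the tissue was taken in bulk, fewer cells of a type and less RNA per cell cannot be told apart here or in the results that follow.

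KCNK1 encodes a weakly rectifying two-pore subunit abundant in brain. Its SD levels were 8.95, 8.85, 8.59 and 8.40, its HFS levels ran from 8.05 through 8.50 to 8.73, and its HFS+R levels from 8.55 through 8.70 to 9.16. All 10 HFS+R arrays exceeded the HFS mean, although the ranges overlapped. It was 1.23-fold higher in HFS+R than in HFS (log2 fold change 0.30, SE 0.09, adjusted p = 0.0296). The KCNK1 call was lost without HFS replicate 3 (log2 fold change 0.26, adjusted p = 0.0596), HFS replicate 4 (0.26, 0.0605) or HFS+R replicate 3 (0.25, 0.0595).

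The other 4 two-pore members were not called with RSV. KCNK6, a two-pore subunit related to KCNK1, read 6.83, 6.98, 6.92 and 6.48 on the SD arrays, 6.25 to 6.75 on HFS arrays (median 6.54) and 6.25 to 6.68 on HFS+R arrays (median 6.50). All 10 HFS and all 10 HFS+R arrays lay below the SD mean. The KCNK6 difference was -0.28 in HFS against SD (SE 0.10, adjusted p = 0.262) and -0.30 in HFS+R against SD (SE 0.10, adjusted p = 0.0696), neither of which passed. Without SD replicate 4 the latter became -0.40 and passed (adjusted p = 0.0185), as it did with quantile normalisation (-0.29, 0.0475) and array weights (-0.36, 0.013). The second kept probe of KCNK6 gave 0.06 in HFS against SD and 0.00 in HFS+R against SD (SE 0.06 each). With the mean of the 2 probes the KCNK6 differences were -0.11 (adjusted p = 0.48) and -0.15 (adjusted p = 0.194).

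KCNMA1, the pore of the large-conductance channel opened jointly by calcium and voltage (BK), was called lower with RSV. It read 10.74, 10.76, 10.62 and 10.78 on the SD arrays, 10.32 to 11.07 on HFS arrays (median 10.69) and 9.79 to 10.73 on HFS+R arrays (median 10.23). SD arrays sat together inside the HFS range, and 9 of 10 HFS+R arrays were below the HFS mean. The fold change was 1.38-fold lower in HFS+R than in HFS (log2 fold change -0.47, SE 0.11, adjusted p = 0.00675). Against SD the log2 fold change was -0.52 (SE 0.14, adjusted p = 0.0285), and that call was lost without SD replicate 1, 2, 3 or 4 (log2 fold change -0.55 to -0.50, adjusted p = 0.055 to 0.0838) and with the mean of its 3 probes (-0.21, adjusted p = 0.116).

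The KCNMA1 difference was seen by 1 of its 3 kept probes. Probe ILMN_1740508, the brightest, gave -0.47 in HFS+R against HFS, while ILMN_2297765 gave 0.03 (SE 0.08) and ILMN_1794282 gave -0.04 (SE 0.05), all 3 being detected on 24 arrays. Tested within arrays, the other probes differed from the brightest by 0.50 (SE 0.11, adjusted p = 0.00589) and 0.43 (SE 0.11, adjusted p = 0.0177). With the mean of the 3 probes the KCNMA1 difference was -0.16 (adjusted p = 0.0709), and with median scaling -0.27 (adjusted p = 0.147). Where each probe lies on the transcripts of KCNMA1 was not examined.

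Of the remaining activated channels, KCNT1 and KCNN3 were each called once. KCNT1, the sodium-activated channel Slack, read 9.85, 10.00, 10.39 and 10.51 on the SD arrays. Its HFS arrays ran from 10.21 through 10.53 to 10.58 and its HFS+R arrays from 10.00 through 10.26 to 10.43. The groups overlapped, and all 10 HFS+R arrays lay below the HFS mean. KCNT1 was 1.18-fold lower in HFS+R than in HFS (log2 fold change -0.24, SE 0.08, adjusted p = 0.0348). That call was lost without any 1 of 10 arrays (HFS replicates 2, 3, 5, 7 and 9, HFS+R replicates 3, 4, 8, 9 and 10), with log2 fold changes of -0.24 to -0.21 and adjusted p = 0.0503 to 0.0663. It was lost in 7 of 17 other settings, among them median scaling (-0.05, adjusted p = 0.714), neqc normalisation (-0.23, 0.0529) and no filter on dim probes (-0.24, 0.0519).

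KCNN3, a small-conductance calcium-activated channel that shapes the pause after a spike, was called lower in HFS+R than in SD. Its dim probe was detected on 3 SD, 2 HFS and 2 HFS+R arrays. The SD levels were 6.23, 6.45, 6.48 and 6.35, and HFS arrays read 5.98 to 6.36 (median 6.16) and HFS+R arrays 5.85 to 6.30 (median 6.05). All HFS and all HFS+R arrays lay below the SD mean. The log2 fold change was -0.31 in HFS+R against SD (SE 0.08, adjusted p = 0.0221), and the call was lost without SD replicate 2 (-0.29, adjusted p = 0.0871) or SD replicate 3 (-0.28, adjusted p = 0.0944). Because most HFS+R arrays were not above the detection limit, the size is uncertain: with neqc normalisation it was -0.55 (adjusted p = 0.0118). KCNN3 was -0.22 in HFS against SD (SE 0.08, adjusted p = 0.287) and -0.09 in HFS+R against HFS. KCNMA1 and KCNN3 were the 2 members called in HFS+R against SD, both of them lower, which is 3.85% of the 52 against 6.30% of all genes in either direction, 2.21% higher and 4.10% lower. At an unadjusted p below 0.05 there were 3 members higher and 6 lower (all genes 20.4%, with 9.46% higher and 10.9% lower), and by the rule of the study's methods 2 higher and 5 lower (all genes 17.6%, with 7.87% higher and 9.68% lower).

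The other 2 activated channels, KCNN1 and KCNT2, were not called in any comparison. KCNT2, a second sodium-activated channel, was detected on 2 SD, 5 HFS and 9 HFS+R arrays. Its difference in HFS+R against HFS was 0.19 (SE 0.09, adjusted p = 0.138).

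**Figure D2:**
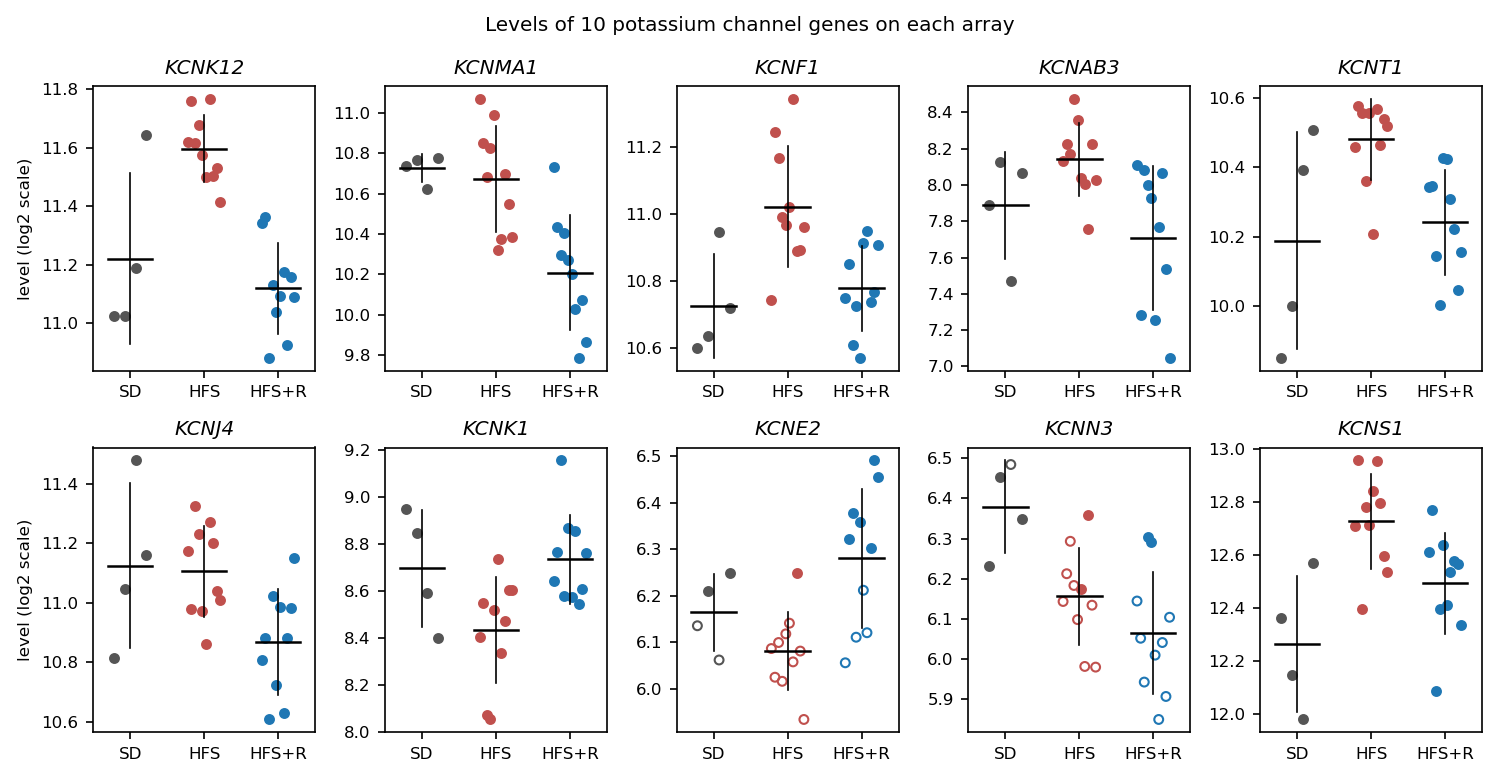
Level on the log2 scale (y axis) of 10 potassium channel genes on each array, by diet group (x axis). Filled points were detected at p below 0.01 and open points were not, horizontal lines are group means and vertical lines are SDs (n = 4, 10 and 10). The KCNK12 arrays of HFS and HFS+R do not overlap, while the other genes overlap between these groups.

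Modifier subunits join voltage-gated pores and shift their gating. KCNF1 read 10.60, 10.64, 10.95 and 10.72 on the SD arrays, 10.74 to 11.34 on HFS arrays (median 10.98) and 10.57 to 10.95 on HFS+R arrays (median 10.76). All 10 HFS arrays exceeded the SD mean, and all 10 HFS+R arrays lay below the HFS mean. KCNF1 was 1.18-fold lower in HFS+R than in HFS (log2 fold change -0.24, SE 0.07, adjusted p = 0.0224). The call held without each of the 24 arrays in turn. With median scaling the KCNF1 difference was -0.03 (adjusted p = 0.818).

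KCNS1, another modifier, read 12.36, 12.15, 11.98 and 12.57 on the SD arrays. HFS arrays ran from 12.40 through 12.75 to 12.96 and HFS+R arrays from 12.09 through 12.55 to 12.77. All 10 HFS arrays exceeded the SD mean, and SD replicate 4 lay within the HFS range. Its log2 fold change in HFS against SD was 0.46 (SE 0.11, adjusted p = 0.181), and in HFS+R against HFS it was -0.24 (SE 0.09, adjusted p = 0.0617). The latter passed without HFS replicate 3 (-0.27, adjusted p = 0.0385), HFS replicate 10 (-0.26, 0.0421), HFS+R replicate 2 (-0.27, 0.0364) or SD replicate 4 (-0.24, 0.0493). With median scaling it turned to 0.04. The other 3 modifiers, KCNG2, KCNS2 and KCNS3, were not called in any comparison.

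Among the inward rectifiers, 1 of 7 was called with RSV. KCNJ4, an inward rectifier of forebrain neurons, read 10.81, 11.05, 11.48 and 11.16 on the SD arrays. HFS arrays ran from 10.86 through 11.11 to 11.33 and HFS+R arrays from 10.61 through 10.88 to 11.15. The 3 groups overlapped. KCNJ4 was 1.18-fold lower in HFS+R than in HFS (log2 fold change -0.24, SE 0.08, adjusted p = 0.0467), close to the threshold. Its second kept probe, detected on 17 arrays, gave -0.22 (SE 0.06, adjusted p = 0.0233 among single probes). The call was lost without any 1 of 14 arrays (HFS replicates 1, 3, 4, 7, 8 and 9, HFS+R replicates 1, 2, 3, 5, 7, 8 and 9, and SD replicate 2), with log2 fold changes of -0.25 to -0.21 and adjusted p = 0.0514 to 0.0918. It was lost in 10 of 17 other settings, among them median scaling (-0.02, adjusted p = 0.879), quantile normalisation (-0.20, 0.0702), neqc normalisation (-0.20, 0.0823) and either looser filter on dim probes (-0.24, 0.0518 and 0.072).

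KCNJ8, the pore of an ATP-sensitive channel found in vascular smooth muscle and pericytes, read 6.71, 6.81, 6.93 and 6.64 on the SD arrays. HFS arrays ran from 6.55 through 6.75 to 6.95 and HFS+R arrays from 6.75 through 6.93 to 7.08. Of the HFS+R arrays, 9 of 10 exceeded the HFS mean. The log2 fold change was 0.17 (SE 0.06, adjusted p = 0.0572), which passed without HFS replicate 4 (0.19, adjusted p = 0.0497), HFS replicate 6 (0.19, 0.0321), HFS+R replicate 4 (0.18, 0.0479) or HFS+R replicate 6 (0.19, 0.0411). It also passed with median scaling (0.22, adjusted p = 0.0371) and array weights (0.17, 0.0409). With quantile normalisation (0.12, adjusted p = 0.169), neqc (0.19, 0.149) and the array SD as a covariate (0.15, 0.192) it did not. Of the pericyte and mural list, 2 of 3 markers were measured, and their mean standardised level ran from -0.832 to 1.51 in HFS and from -1.15 to 1.11 in HFS+R. Its part in the KCNJ8 values was not tested. The astrocytic inward rectifier KCNJ10 and KCNJ2, KCNJ6, KCNJ12 and KCNJ13 were not called in any comparison.

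None of the 18 voltage-gated pores (KCNA1, KCNA4, KCNA5, KCNA6, KCNB2, KCNC1, KCNC2, KCNC4, KCND3, KCNH1, KCNH2, KCNH3, KCNH4, KCNH5, KCNH6, KCNH8, KCNQ3 and KCNQ5) was called with RSV by limma on the brightest probe. At an unadjusted p below 0.05 there were 3 higher and 2 lower. Over all genes 16% were called and 31.4% had an unadjusted p below 0.05. The log2 fold changes of the 18 ran from -0.29 to 0.26 with a median of -0.02. KCNC1, a fast-repolarising pore, passed with quantile normalisation (-0.15, adjusted p = 0.0433) and with neqc normalisation (-0.18, adjusted p = 0.0485), and KCNA6 passed without HFS+R replicate 10 (0.20, adjusted p = 0.0335). KCNQ5, a subunit of the slow M-type current that restrains firing, came nearest: it read 6.44, 6.50, 6.58 and 6.54 on the SD arrays, 6.19 to 6.85 on HFS arrays (median 6.50) and 6.29 to 7.12 on HFS+R arrays (median 6.76). All 4 SD arrays lay near the HFS median, and 8 of 10 HFS+R arrays exceeded the HFS mean. The KCNQ5 log2 fold change was 0.26 (SE 0.09, adjusted p = 0.0526). It passed without HFS replicate 10 (0.30, adjusted p = 0.0201), HFS+R replicate 5 (0.31, 0.0193) or HFS+R replicate 6 (0.29, 0.0313), and with median scaling (0.29, 0.0391) or the mean of its probes (0.22, 0.0299). Over all other settings and left-out arrays the adjusted p of KCNQ5 ran from 0.0193 to 0.147. Its second kept probe gave 0.18 (SE 0.06, adjusted p = 0.0454 among single probes).

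KCNH1, a pore of the ether-a-go-go group, read 6.56, 6.37, 6.20 and 6.41 on the SD arrays, 6.07 to 6.53 on HFS arrays (median 6.29) and 6.10 to 6.65 on HFS+R arrays (median 6.53). It was detected on 3 SD, 7 HFS and 8 HFS+R arrays. The log2 fold change with RSV was 0.19 (SE 0.07, adjusted p = 0.0637), which passed without HFS replicate 8 (0.21, adjusted p = 0.0364), HFS+R replicate 6 (0.21, 0.0469) or HFS+R replicate 10 (0.23, 0.02). It did not pass with quantile normalisation (0.16, adjusted p = 0.112), neqc (0.28, 0.101), median scaling (0.22, 0.058) or the array SD as a covariate (0.13, 0.314).

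Among the 11 accessory subunits, 1 was called lower and 1 higher with RSV. KCNAB3, a beta subunit of the KCNA pores, read 7.89, 8.12, 7.47 and 8.07 on the SD arrays. HFS arrays ran from 7.76 through 8.15 to 8.47 and HFS+R arrays from 7.05 through 7.85 to 8.11. All HFS+R arrays lay below the HFS mean, and 3 of them lay below every SD and HFS array. KCNAB3 was 1.35-fold lower in HFS+R than in HFS (log2 fold change -0.43, SE 0.13, adjusted p = 0.0267), and the call was lost without HFS replicate 4 (-0.40, adjusted p = 0.0533) and with median scaling (-0.33, adjusted p = 0.115).

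KCNE2, a single-span subunit abundant in choroid plexus epithelium of the mouse, read 6.14, 6.21, 6.06 and 6.25 on the SD arrays. HFS arrays ran from 5.93 through 6.08 to 6.25 and HFS+R arrays from 6.06 through 6.31 to 6.49. The fitted difference between HFS+R and HFS was 0.20 (SE 0.06), and 0.32 with neqc normalisation. The probe was detected on 2 SD, 1 HFS and 6 HFS+R arrays, so it entered the analysis through the HFS+R group, as did KCNMB3 (1, 1 and 4 arrays), while KCNH8 entered through HFS (1, 5 and 2 arrays). The KCNE2 probe passed the filter only with its HFS+R detections, and 9 of 10 HFS arrays were not above the detection limit. The KCNE2 call is therefore a description and carries no weight as a test. Of 3 choroid plexus markers only TTR was measured, with a mean standardised level of 0.156 ± 1.10 across the HFS arrays and 0.0413 ± 0.975 across the HFS+R arrays (SD, n = 10 each). Its part in the KCNE2 values was not tested.

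The other 9 accessory subunits (KCNAB1, KCNAB2, KCNIP1, KCNIP2, KCNIP3, KCNIP4, KCNMB2, KCNMB3 and KCNMB4) were not called on their brightest probe. KCNMB4, the neuronal beta subunit of the BK channel, gave 0.22 (SE 0.09, adjusted p = 0.110) in HFS+R against HFS. The brightest probe of its pore KCNMA1 gave -0.47, and the other KCNMA1 probes gave 0.03 and -0.04. KCNIP3, a calcium-binding partner of the KCND pores, gave -0.22 (SE 0.09, adjusted p = 0.0803), which passed without HFS replicate 9 (-0.26, adjusted p = 0.0336) or HFS+R replicate 7 (-0.26, 0.0345). With median scaling the KCNIP3 difference was 0.01 (adjusted p = 0.953).

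Several kept probes were available for 16 members. Of 72 kept probes of members, 13 were called with RSV, 5 higher and 8 lower (18.1%, against 15.4% of all kept probes, 9.92% higher and 5.51% lower). Against SD, 1 was higher with RSV and 2 lower (6.29% of all kept probes, 2.37% higher and 3.92% lower). Of 20 comparisons of a further probe with the brightest probe of the same gene, 3 differed, against 9.82% of 2587 such comparisons over all genes, and 2 differed in HFS+R against SD, against 6.69%. Besides KCNMA1 the third was KCNA1, a voltage-gated pore of axons. Its brightest probe gave 0.14 (SE 0.08, adjusted p = 0.278) in HFS+R against HFS and its second probe, detected on 23 arrays, gave -0.36 (SE 0.10, adjusted p = 0.0155), a difference of -0.50 (SE 0.10, adjusted p = 0.00185). KCNA1 and the 2 genes in the next sentences were chosen after their values were seen. For KCNIP4, which binds the KCND pores, the brightest probe gave 0.12, the second 0.34 (SE 0.09, adjusted p = 0.0109) and the third, detected on 6 arrays, -0.34 (SE 0.20, adjusted p = 0.262). The second KCNIP4 probe differed, in HFS+R against SD, from the brightest by 0.53 (SE 0.11, adjusted p = 0.00283). For KCNC2, a fast-repolarising pore of interneurons, all 3 probes lay above 0, at 0.24, 0.20 and 0.29, and the third passed (SE 0.08, adjusted p = 0.0147).

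**Figure D3:**
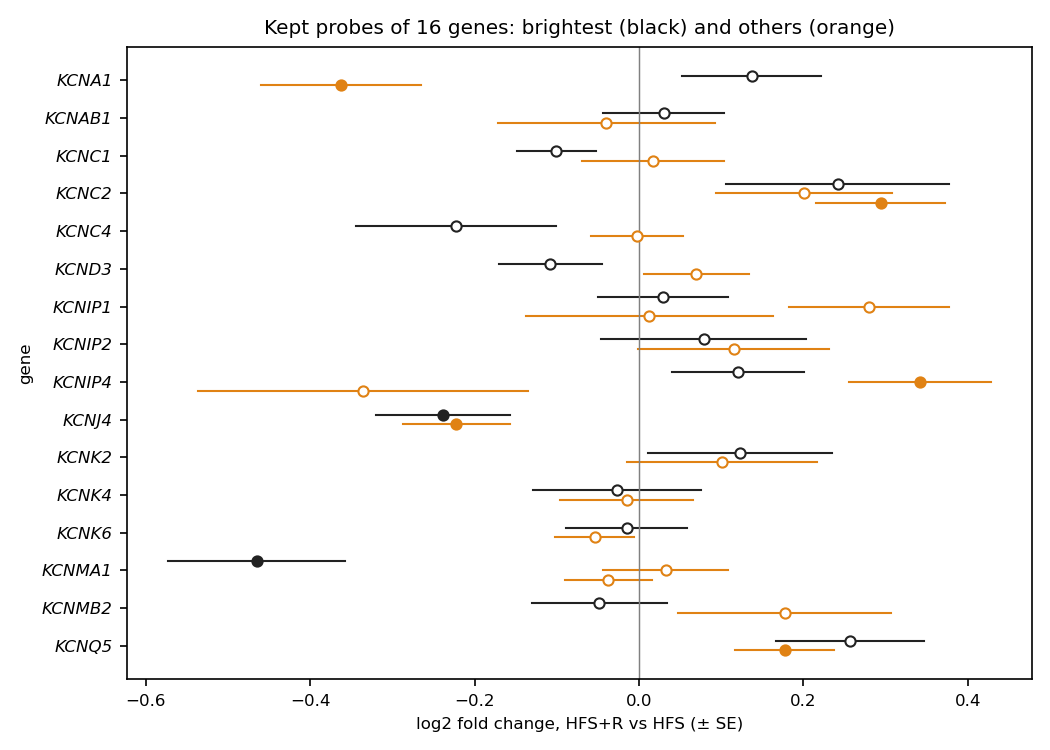
Log2 fold change in HFS+R against HFS (x axis, with SE) of each kept probe of the 16 members with several (y axis). Black marks the brightest probe, orange the others, and filled points have an adjusted p below 0.05 over all kept probes. The probes of KCNMA1 lie at -0.47, 0.03 and -0.04 and those of KCNA1 at 0.14 and -0.36, while the KCNJ4 probes lie at -0.24 and -0.22.

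In the HFS group compared with SD, 0 of the 52 members and 0 of 9884 genes were called by limma (0% of all genes). At an unadjusted p below 0.05, 7 members were higher and 5 lower, against 12.6% of all genes (4.82% higher, 7.83% lower). A rule after the study's methods took a Z ratio beyond 1.5 in either direction, p below 0.05 and false discovery rate below 0.3. The Z ratio was the difference of the group mean Z scores over the SD of that difference across all probes. The p-value and the false discovery rate, whose criterion is as read here, came from the limma fit. By this rule 4 members were higher, namely KCNS1, KCNK12, KCNF1 and KCNT1, and 2 were lower, KCNK6 and KCNN3. Over all genes it took 5.38% (1.93% higher, 3.45% lower). KCNK12 stood 0.37 higher (SE 0.10, adjusted p = 0.189), KCNF1 0.30 (SE 0.09, adjusted p = 0.241) and KCNT1 0.29 (SE 0.10, adjusted p = 0.262). Without SD replicate 4 KCNK12 passed, at 0.52 (adjusted p = 0.0402), and 1 member was then called higher. With median scaling the 4 differences were 0.10 for KCNS1, 0.07 for KCNK12, 0.01 for KCNF1 and 0.05 for KCNT1, and with the array SD as a covariate to 0.34, 0.19, 0.19 and 0.18. Without SD replicates 1 and 2 KCNK12 stood at 0.18, KCNF1 at 0.19 and KCNT1 at 0.03. For KCNS1, SD replicates 3 and 4 read 11.98 and 12.57, on either side of the mean of all SD arrays (12.26). The KCNS1 difference from the HFS mean (12.73) therefore kept about its size. The same 4 genes read -0.24 to -0.48 in HFS+R against HFS, a comparison that uses the same HFS arrays, so that the second set of values does not stand apart from the first. In HFS+R against SD they read 0.23 for KCNS1, -0.10 for KCNK12, 0.05 for KCNF1 and 0.05 for KCNT1, and none passed.

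Of 30 listed partner proteins of potassium channels outside the KCN names, 19 were measured. With RSV, 3 of the 19 were called, a share near the 16% of all genes, and against SD 2 of the 19, where 6.30% of all genes were. LGI1, a secreted protein that acts on KCNA channels, was higher in HFS+R than in HFS (log2 fold change 0.22, SE 0.08, adjusted p = 0.047), while NEDD4L, a ubiquitin ligase of KCNQ channels (-0.47, SE 0.09, adjusted p = 0.00185), and STX1A, a synaptic membrane protein that binds potassium channels (-0.30, SE 0.09, adjusted p = 0.028), were lower. NEDD4L and STX1A were also lower than in SD, with log2 fold changes of -0.69 and -0.44 (adjusted p = 0.000641 and 0.0281). The median over the 19 was -0.03 with RSV. In HFS against SD limma called 0 of the 19.

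Measures of the arrays were compared between the groups, and none passed after adjustment. The SD of the log2 signal over an array was 1.42 ± 0.0521 for HFS arrays, 1.48 ± 0.0489 for HFS+R arrays and 1.5 ± 0.0795 for SD arrays (mean ± SD, n = 10, 10 and 4; HFS+R against HFS, permutation p = 0.0162, adjusted over 39 tests 0.475). Of 11 oligodendrocyte markers 10 were measured, and their mean standardised level ran from -1.76 to 0.666 in HFS and from -0.343 to 1.55 in HFS+R (permutation p = 0.0526, adjusted 0.475). By limma MOG (0.39), ERMN (0.32) and UGT8 (0.43) were called higher in HFS+R than in HFS. The other oligodendrocyte markers, from -0.03 for MBP to 0.32 for CLDN11, were not called. Of 7 neuron markers 6 were measured, SYT1 being without a kept probe, and their mean standardised level ran from -0.516 to 0.704 in HFS and from -1.43 to 0.951 in HFS+R (permutation p = 0.134, adjusted 0.487). The neuron difference between HFS+R and HFS was -0.40, and with median scaling it was 0.55. Among the neuron markers limma called ENO2 lower in HFS+R than in HFS (-0.32, adjusted p = 0.0141). The other neuron markers, from -0.24 for NEFL to 0.05 for RBFOX3, were not called. Of 8 astrocyte markers 7 were measured, and their level averaged 0.366 in SD, -0.251 in HFS and 0.105 in HFS+R (permutation p = 0.04 for HFS against SD and 0.0975 for HFS+R against HFS, adjusted 0.475 for both). These markers did not move together in HFS+R against HFS. By limma GJA1 was called higher (0.56, adjusted p = 0.00209), ALDH1L1 was called lower (-0.32, 0.0317) and the others were not called.

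With the array SD as a covariate, KCNK12, KCNMA1 and KCNAB3 stayed called in HFS+R against HFS, at -0.33, -0.46 and -0.53. KCNF1, KCNT1, KCNJ4, KCNK1 and KCNE2 did not, at -0.16, -0.15, -0.14, 0.18 and 0.19. With the oligodendrocyte level as a covariate, of the 8, KCNK12 at -0.48 and KCNMA1 at -0.56 were called. The differences of the others were -0.45 for KCNAB3 (adjusted p = 0.0516), -0.24 for KCNT1 (0.0767), -0.20 for KCNF1 (0.093), -0.17 for KCNJ4 (0.201), 0.24 for KCNK1 (0.125) and 0.19 for KCNE2. With the neuron level, of the 8, KCNK12 at -0.42, KCNMA1 at -0.48 and KCNAB3 at -0.48 were called. KCNE2 also passed, at 0.21, but it entered the analysis through the HFS+R group, so this carries no weight as a test. The part of these covariates in the remaining values was not tested further.

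**Figure D4:**
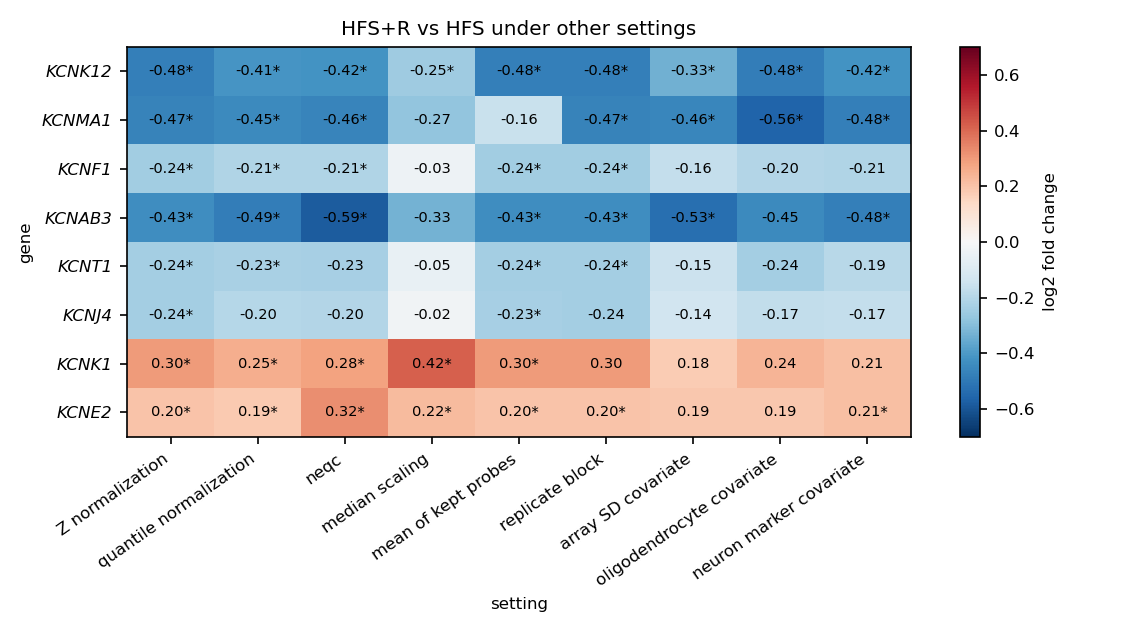
Log2 fold change in HFS+R against HFS (colour and printed value) of the 8 called members (y axis) under the Z normalisation and 8 other settings (x axis). An asterisk marks an adjusted p below 0.05: KCNK12 has one in every column shown, and KCNJ4 in 2.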

How the data were processed

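Total RNA from the cortex of 24 monkeys was hybridised to HumanHT-12 V4 bead arrays (47323 probes, 1 array per animal). The authors deposited, for each array, the signal intensity of every probe from GenomeStudio 2011.1 with a detection p-value, the chance of such a signal among negative controls, and a Z score, the log2 signal minus the array's mean over the array's SD. Z scores recomputed from the deposited intensities differed by at most 5e-10. Depth does not apply to arrays, and the number of arrays (4, 10 and 10) limits the precision. Slide and scan date are not given in the sources used here, so batches could not be tested.

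Z scores were multiplied by the mean array SD (1.46019) and returned to the log2 scale. Probes with detection p below 0.01 on at least 4 arrays were kept (15531, of which 12471 had 1 gene symbol in the platform annotation), the brightest kept probe stood for its gene, and 9884 genes were fitted in limma 3.58.1 (R 4.3.3, statmod 1.5.0) with all 3 diets in 1 model and Benjamini-Hochberg adjustment over all genes in each comparison. Probes of a gene were also fitted singly and as within-array differences. Array measures and marker levels were compared by 2-sided permutation tests, exact against the SD group and with 100000 draws between HFS and HFS+R (20000 under other scalings), adjusted over 39 tests. Marker lists are means of standardised genes. The method was tested on simulated data. Figures used matplotlib 3.10.9.

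The members and lists were chosen with earlier results of these data known. Described with full values were members called in any comparison, KCNS1 and KCNK12 as genes the study names, the 6 members of smallest unadjusted p in HFS against SD and, in each class, the 2 of smallest p in HFS+R against HFS; other genes named with values were chosen after their values were seen. Alternatives were quantile and neqc normalisation (offset 16), median scaling, other detection filters, other probe rules, array weights, a trended and robust prior, a replicate block, covariates, the study's rule (its printed criterion of a false discovery rate above 0.3 was read as below 0.3), and each array left out. The neuron covariate, the probe-difference fit and the joint removal of SD replicates 1 and 2 were added after seeing the data.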

Additional observations from a re-analysis of the deposited data

Results flagged for a closer look

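Over the 14 members described with full values and the 3 diet groups, 42 sets of arrays were examined for an array set apart from the rest of its group, and 1 was found, where chance flags about 1 in 20. KCNK1 read 9.16 on HFS+R replicate 3, against 8.87 on the next highest array of that group, a gap of 0.468 of the group's range. Without that array KCNK1 was 0.25 higher in HFS+R than in HFS (adjusted p = 0.0595).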

How the results depend on the processing

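No call turned its direction under any setting that gave 1 value per gene. With every kept probe by itself, KCNMA1 probe ILMN_2297765 read 0.03 in HFS+R against HFS, where the brightest read -0.47. In HFS+R against HFS, where 2 members were called higher and 6 lower, the higher count was 5 with median scaling, 1 with genes detected on all arrays, 5 with every kept probe, 1 with the replicate block, 0 with the array SD, the oligodendrocyte level or both as covariates, and 7 by the study's rule. The lower count was 1 with median scaling, 3 with the array SD covariate, 2 with the oligodendrocyte covariate, 3 with both and 3 with the neuron covariate. With each array left out in turn the higher count ran from 1 to 5 and the lower from 4 to 7. In HFS against SD (0 called) the study's rule gave 4 higher and 2 lower, and left-out arrays gave 0 to 1 higher and 0 lower. In HFS+R against SD (0 higher, 2 lower) the higher count was 1 with every kept probe and 2 by the study's rule. The lower count was 1 with median scaling, with genes detected on all arrays or with the mean of kept probes. It was 0 without SD replicates 1 and 2, and 0 with the replicate block, which kept only 4 arrays per group there. By the study's rule the lower count was 5, and with arrays left out it was 0 to 2. Of the partner proteins, median scaling called 0 higher and 1 lower in HFS+R against HFS, against 1 and 2. Over all genes, 62.1% of the calls in that comparison were higher, and 52.3% with quantile normalisation, 52.5% with neqc and 95.1% with median scaling; the cause was not tested.

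Replicate numbers did not pair the arrays: deviations of same-numbered HFS and HFS+R arrays correlated between -0.118 and 0.249, with 2 of 10 pairs above 0.1. With the replicate block KCNK1 (0.30, adjusted p = 0.0551) and KCNJ4 (-0.24, 0.0724) kept their size in HFS+R against HFS but not their calls. The block also brought in KCNS1 (-0.24) and KCNIP3 (-0.22) in that comparison. Under the block, both comparisons with SD kept only replicate numbers present in each group, which left 4 arrays per group. On this smaller set of HFS+R arrays, KCNMA1 was -0.26 against SD (adjusted p = 0.697) and KCNN3 was -0.27 (0.713).

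Signs changed for log2 fold changes that were not called, and none of those below passed afterwards. In HFS against SD they became -0.121 for KCNA1 and -0.0217 for KCNIP3 with median scaling, -0.00348 for KCNC2 and 0.000828 for KCNJ8 with the neuron covariate, 0.0284 and 0.0401 for KCNJ8 with quantile normalisation and neqc, 0.0316 for KCNIP4 and 0.108 for KCNJ4 with the mean of kept probes, 0.00928 for KCNJ4 with array weights, and 0.0523 for KCNJ4, 0.13 for KCNMA1 and 0.0119 for KCNQ5 with the replicate block. In HFS+R against HFS they became -0.113 for KCNA1 with the mean of kept probes, 0.0113 for KCNIP3, 0.0225 for KCNK6 and 0.0425 for KCNS1 with median scaling, and 0.0184 for KCNK6 with the oligodendrocyte covariate. In HFS+R against SD they became -0.0548 for KCNA1 and 0.0738 for KCNIP4 with the mean of kept probes, -0.0181 for KCNF1 and -0.0144 for KCNK1 with median scaling, 0.0343 for KCNIP4 and -0.0375 for KCNK1 with array weights, 0.00932 for KCNIP4 and -0.00838 for KCNK1 with the oligodendrocyte covariate, and -0.0545 for KCNF1, 0.0258 for KCNIP4 and -0.208 for KCNT1 without SD replicates 1 and 2. With each array left out in turn, values of changing sign ran from -0.122 to 0.0992 for KCNJ4, -0.0645 to 0.0331 for KCNJ8 and -0.069 to 0.00421 for KCNQ5 in HFS against SD, from -0.0451 to 0.0134 for KCNK6 in HFS+R against HFS, and from -0.0647 to 0.0549 for KCNIP4, -0.0596 to 0.123 for KCNK1, -0.166 to 0.0399 for KCNK12 (above 0 only without SD replicate 4) and -0.0588 to 0.161 for KCNT1 in HFS+R against SD. Among the other members, 140 further values changed sign over the settings and 102 over left-out arrays, none of them a called value.

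Marker differences also changed sign. With quantile normalisation they became 0.0866 for microglia in HFS against SD, and -0.0963 for endothelial and 0.172 for excitatory neuron markers in HFS+R against HFS. With median scaling they became -0.247 for endothelial, -0.649 for neuron, -0.871 for excitatory neuron and -0.627 for interneuron markers in HFS against SD, 0.104 for oligodendrocyte precursor, 0.106 for pericyte and mural, 0.545 for neuron and 0.741 for excitatory neuron markers (permutation p = 0.0284, unadjusted) in HFS+R against HFS, and -0.0141 for microglia, -0.104 for neuron and -0.13 for excitatory neuron markers in HFS+R against SD.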
